A study of Mus musculus with 8 samples.

Results

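The genes described here are 39 genes of glycolysis and of the response to low oxygen, taken by symbol from the 24059 gene symbols counted in the series. All 39 were found. They comprise 15 glycolytic enzymes and 24 other genes of the hypoxia-inducible factor (HIF) pathway, and 36 of the 39 (15 enzymes and 21 others) passed the low-count filter and were tested among 14934 genes. The cells were bone marrow–derived mast cells (BMMCs) of the C57BL/6 strain, which had been grown from bone marrow with IL-3 for no less than 4 wk. They were then transfected with Cas9 ribonucleoproteins (RNPs) whose guide RNA was either directed at *Zc3h12a*, the gene of the RNA-degrading protein Regnase-1 (genotype label Zc3h12a KO, 4 samples), or was scrambled (genotype label Zc3h12a WT, 4 samples). RNA was taken from resting cells after a further 1 wk of culture. By the study's methods, several guides were chosen for *Zc3h12a*. Each group is a transfected population and not a clone, and the scrambled cells carried Cas9 RNP as well. The design text of the series gives 4 mice for these 8 libraries, and libraries that carry 1 replicate number were compared as a pair. That a number stands for a mouse, whose cells received both RNPs, is not in the labels. Unless stated otherwise, p-values weigh a difference against how it varied between these 4 pairs, and they cover only these 8 libraries.

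HIF is a transcription factor made of an oxygen-regulated alpha subunit, such as the one encoded by *Hif1a*, and a constant beta subunit. When oxygen is present, prolyl hydroxylases of the Egln family mark the alpha subunit for destruction; when oxygen is scarce it persists, binds short elements near the core letters RCGTG and raises the transcription of genes for glucose uptake, glycolysis, lactate export, mitochondrial quality control and blood vessel growth. Because HIF protein is controlled mainly after translation, the mRNA of *Hif1a* can stay level while its targets move. Mast cells use glycolysis for growth and for the response to activating signals, and several glycolytic genes are expressed with or without HIF.

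Total counts were 19610240 to 33986762 per scrambled RNP library, with scrambled RNP replicate 4 the lowest, and 23712029 to 28564062 per *Zc3h12a* RNP library. *Zc3h12a* itself was at 34.8 ± 6.65 CPM (counts scaled by TMM-corrected library size; SD, n = 4) with scrambled RNP and at 33.2 ± 5.91 CPM (SD, n = 4) with *Zc3h12a* RNP, so this mRNA could not serve to check the labels. The summed level of 12 mast cell markers was 60042 to 69484 CPM with scrambled RNP and 56666 to 60462 CPM with *Zc3h12a* RNP, and 11 of the 12 had a negative log2 fold change. The 8 macrophage and monocyte markers summed to 15.2 to 20.2 CPM over all libraries, the neutrophil markers to no more than 0.333 CPM and the B and T cell markers to no more than 5.81 CPM, with *Cd8a* at 0 counts. The basophil list summed to 445 to 542 CPM, nearly all of it *Cd200r3*. The erythroid and megakaryocyte list summed to 1264 to 2030 CPM, nearly all of it *Itga2b*, which mast cells express too.

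Members that stood apart together in scrambled RNP replicate 4, described further on, are shown first by sequence. RefSeq start sites on the GRCm38.p6 assembly gave 58 windows of the 250 bases before a start for 36 of the 39 members (none for *Bnip3l*, *Slc2a3* and *Ndrg1*). The windows printed from were each found exactly once in GRCm39. The letters ACGTG, on either strand, were in 27 of the 58 windows (46.6%), against 16.6% of all 32851 windows and 20.8% of those of tested genes. GCGTG was in 33 of the 58 (56.9%), against 28.2% of all windows and 41.3% of those of tested genes, and 1 or both were in 47 (81%) against 38.6% and 52.4%. The palindrome CACGTG holds ACGTG on both strands, and windows of 1 gene may overlap. ACGTG was in 18 of 32 windows of the other HIF pathway genes and in 9 of 26 windows of the glycolytic enzymes. The stretches of 30 bases below are written 5′ to 3′ on the strand of the gene, with ACGTG or GCGTG of either strand in capitals (on the other strand they read CACGT and CACGC). Their GRCm39 positions are chr2:71703477-71703506 (+) for *Pdk1*, chr7:138511336-138511365 (−) for *Bnip3*, chr11:120839860-120839889 (+) for *Slc16a3*, chr11:78213836-78213865 (+) for *Aldoc*, chr10:77845724-77845753 (−) for *Pfkl*, chr12:54250873-54250902 (−) for *Egln3* and chr4:101276674-101276703 (+) for *Ak4*.
Pdk1: cccgcctacatggGCGTGtctttaaccagg
Bnip3: gcccatgccggcgCACGCgccgCACGTGcc
Slc16a3: gcggtgACGTGcgcgggggACGTGccgcgc
Aldoc: tccacctctgaggGCGTGgccttaccctag
Pfkl: catttgtagactgGCGTGcgctccgccttt
Egln3: atgtgcatctcagACGTGagatccaggttt
Ak4: tcccactctgccCACGTGcggggaccggca
These matches describe letters and not bound sites. Each stretch was picked from a window that held the letters, and other windows of the same gene may lack them. A further *Pdk1* window, at chr2:71704998-71705247 (+), held 0 matches of either. Further windows of *Ak4* and *Aldoc* held GCGTG and no ACGTG. In GENCODE's annotation, exons of the same strand cover all 250 bases of the *Slc16a3*, *Aldoc* and *Pfkl* windows shown, 80 of the *Pdk1* window, 179 of the *Ak4* window, 18 of the *Bnip3* window and 13 of the *Egln3* window.

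The comparison of *Zc3h12a* RNP with scrambled RNP asks whether these transcripts differ in resting mast cells in which Regnase-1 was targeted. None of the 36 tested members passed an adjusted p at or under 0.05 with a log2 fold change beyond 0.5, and the background was 0% of all tested genes (quasi-likelihood test of edgeR, blocked on replicate number, Benjamini-Hochberg adjustment over 14934 genes). All 36 had a log2 fold change below 0, against 42.2% of all tested genes, although 30 of 36 did when libraries were scaled by total counts only. The median over the members was -0.29, against 0.038 over all tested genes. These backgrounds include many genes of low count. Where at least 10 counts in every library were required, the median of all genes was -0.011, and 36 members were below 0. At an unadjusted p at or under 0.05, 13 members were lower and 0 higher, where 4.05% of tested genes were lower. Among the tested members, 10 of 36 were lower in all 4 pairs, against 8.54% of tested genes. In RNA from whole cultures, fewer cells of a type and less RNA per cell cannot be told apart. Without replicate 4, 32 of 36 members were below 0 (45.8% of tested genes), with a median of -0.11, and 7 were lower at an unadjusted p at or under 0.05 (2.63% of tested genes).

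**Figure D1:**
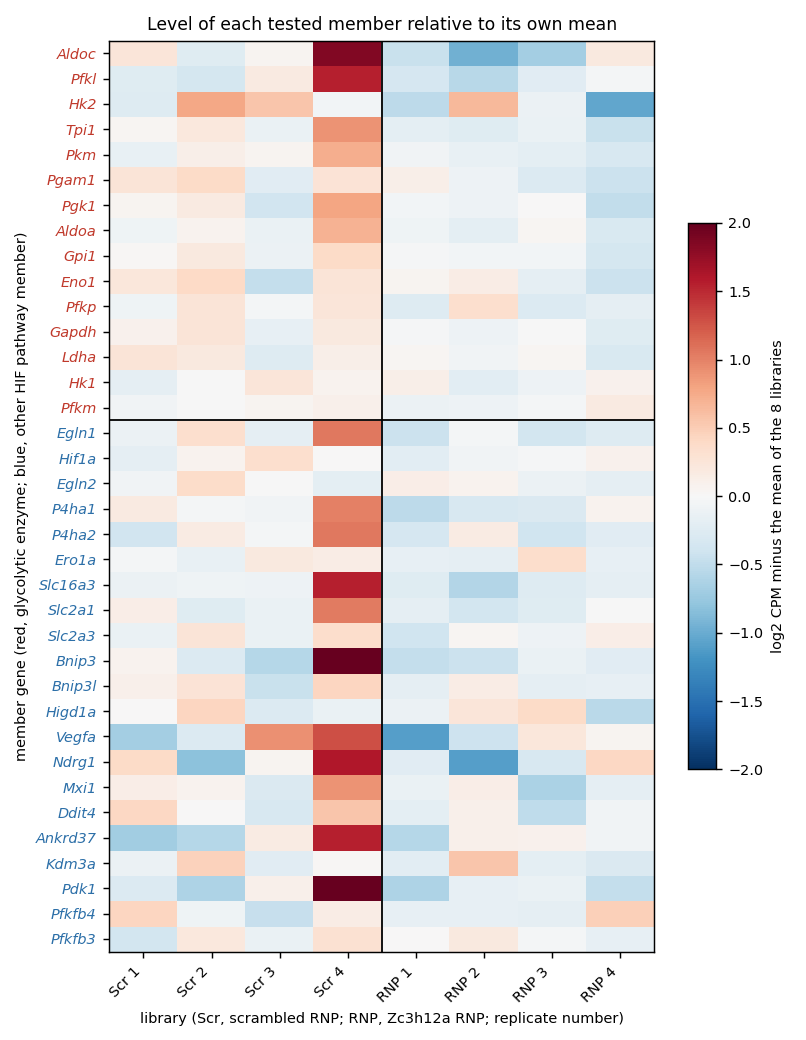
Level of each tested member (rows) in each of the 8 libraries (columns), as log2 CPM minus the mean of that gene over the 8 libraries; red is above and blue below the gene's mean, and the scale ends at 2 in either direction. The column of scrambled RNP replicate 4 is the reddest, with a median of 0.89 over the 21 other HIF pathway genes and 0.28 over the 15 glycolytic enzymes.

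One of the scrambled RNP libraries stood apart for many members. Scrambled RNP replicate 4 was the highest of the 8 libraries for 22 of the 36 tested members, against 27.3% of all tested genes. Among genes with a mean above 10 CPM it was the highest for 21 of 35 members, against 9.83% of 8319 genes. In that library the 21 other HIF pathway genes had a median of 0.89 above their own means on the log2 scale, and their medians in the other 7 libraries lay between -0.21 and 0.012. The glycolytic enzymes had a median of 0.28 there, against 0.19 in scrambled RNP replicate 2 and -0.31 in *Zc3h12a* RNP replicate 4, which was the lowest of the 8 libraries for 11 of 35 members.

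Of the 8319 genes, 7 (0.0841%) were at least 2-fold higher in scrambled RNP replicate 4 than in every other library, and 6 of the 7 were members. These were *Pdk1*, 4.2-fold above the next highest library, *Bnip3* (3.87-fold), *Slc16a3* (3.13-fold), *Aldoc* (3.04-fold), *Pfkl* (2.6-fold) and *Ndrg1* (2.28-fold); the other gene was *Serpina3f* (2.03-fold). No member led by 2-fold in any other library, where 0 to 5 of all 8319 genes did. This description of 1 library was chosen after its values were seen and carries no test. Scrambled RNP replicate 4 had 61265 CPM of mast cell markers, against 56666 to 69484 CPM in the other 7 libraries. Its macrophage and monocyte markers summed to 15.2 CPM against 15.6 to 20.2 CPM, its neutrophil markers to 0.333 CPM against 0.0634 to 0.312 CPM, and its B and T cell markers to 5.81 CPM against 1.1 to 5.14 CPM. It also had the fewest reads, and with scrambled RNP replicate 2 it lay at the ends of the first principal component (74.7 and -121, with 65.7% of the variance). The part of these marker sums, of depth or of this component in the members' levels was not tested.

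**Figure D2:**
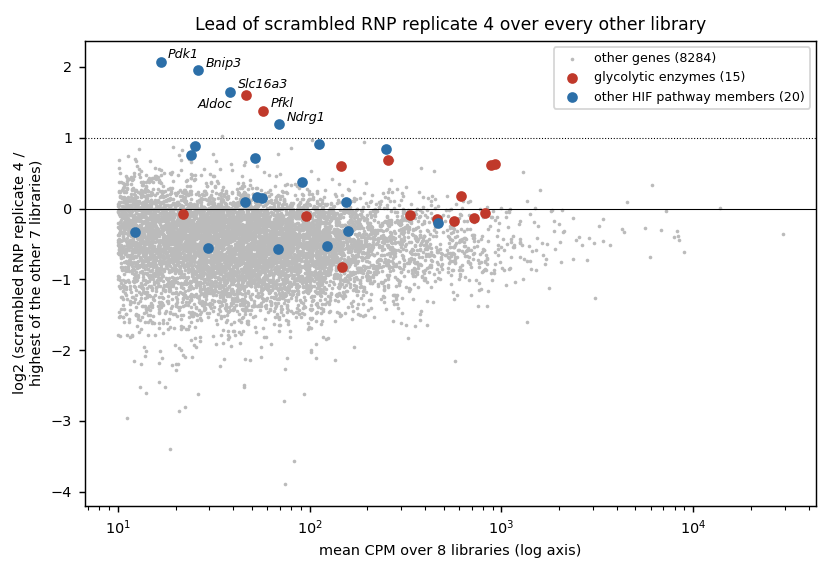
Each point is a gene with a mean above 10 CPM: mean CPM over the 8 libraries (log axis) against the log2 ratio of scrambled RNP replicate 4 to the highest of the other 7 libraries. Red points are the 15 glycolytic enzymes, blue points 20 other HIF pathway genes and grey points other genes, and 6 of the 7 genes above the dotted line at 1 (2-fold) are members.

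*Hif1a* (chromosome 12, 73948149 to 73996321, GRCm39), the oxygen-regulated subunit, was at 139, 165, 199 and 159 CPM in scrambled RNP replicates 1 to 4 and at 136, 150, 156 and 167 CPM in *Zc3h12a* RNP replicates 1 to 4. The groups overlapped, and scrambled RNP replicate 4 did not stand out. The fitted log2 fold change of *Hif1a* was -0.11 with a standard error (SE) of 0.092 and an adjusted p of 0.96. *Egln1*, the main HIF prolyl hydroxylase, was at 44.8, 61.5, 42.8 and 101 CPM with scrambled RNP and at 36.2, 47.3, 37.7 and 40.5 CPM with *Zc3h12a* RNP. It was lower in 4 of 4 pairs, and scrambled RNP replicate 4 was 1.65-fold above the next library. For *Egln1* the log2 fold change was -0.55 (SE 0.18, unadjusted p 0.0181, adjusted p 0.686), and -0.29 (SE 0.10, unadjusted p 0.0186, adjusted p 0.745) without replicate 4.

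*Egln2*, a prolyl hydroxylase that HIF is not known for inducing, was at 64.7, 87.4, 67.4 and 58.8 CPM with scrambled RNP and at 74, 70.8, 62.6 and 59.8 CPM with *Zc3h12a* RNP. Scrambled RNP replicate 4 was here the lowest library, and the log2 fold change was -0.049 (SE 0.10). *Egln3*, by contrast, is strongly induced by HIF in many cells. It had 26, 13 and 7 reads in scrambled RNP replicates 1 to 3, 275 reads in replicate 4, and 2, 3, 7 and 6 reads in *Zc3h12a* RNP replicates 1 to 4. Its level of 13.1 CPM in scrambled RNP replicate 4 was 15.9-fold that of the next library. The low-count filter left *Egln3* out of the main test. In the edgeR test with no such filter its log2 fold change was -2.84 (SE 0.71, adjusted p 0.0683). No fit tested *Egln3* without replicate 4, so the part of the 275 reads in that value was not tested. *Egln3* was also lower with *Zc3h12a* RNP in pair 1 (0.824 to 0.0693 CPM) and pair 2 (0.433 to 0.13 CPM). Pair 3 had 7 reads in each library. The fit with no low-count filter gave *Pdk1* an SE of 0.20, against 0.46 in the main fit. The p of *Egln3* in that fit is therefore not read as a measure of a difference between the groups.

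Among the glycolytic enzymes, *Aldoc*, an aldolase isoform (chromosome 11, 78213619 to 78218889), had the largest difference and the lowest unadjusted p of the members. It was at 45.6, 32.7, 40 and 139 CPM with scrambled RNP and at 28.3, 19.9, 24.1 and 44.2 CPM with *Zc3h12a* RNP. The *Zc3h12a* RNP library was the lower in each pair, with log2 differences of -0.69, -0.71, -0.73 and -1.64, although the groups overlapped. The log2 fold change of *Aldoc* was -0.95 (SE 0.17, unadjusted p 0.000599, adjusted p 0.401). Without replicate 4 it was -0.71 (SE 0.10, unadjusted p 6.78e-05, adjusted p 0.202), and the differences of pairs 1 to 3 were of nearly equal size.

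*Pfkl*, the liver-type isoform of phosphofructokinase, which catalyses the committed step of glycolysis, was at 42.8, 39.7, 57.5 and 149 CPM with scrambled RNP and at 39.9, 34.3, 43.3 and 49.3 CPM with *Zc3h12a* RNP. Scrambled RNP replicate 4 stood far above the rest, and the other 3 scrambled RNP libraries overlapped the *Zc3h12a* RNP libraries. A log2 fold change of -0.58 (SE 0.24, unadjusted p 0.0406, adjusted p 0.772) was fitted for *Pfkl*, and one of -0.24 (SE 0.11) without replicate 4. The muscle and platelet isoforms did not share this pattern. *Pfkm* was at 20.1 to 24.7 CPM in the 8 libraries, with a log2 fold change of -0.036 (SE 0.08). *Pfkp* was at 273 to 414 CPM, with a log2 fold change of -0.19 (SE 0.10).

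*Hk2*, the inducible hexokinase that phosphorylates glucose on entry, was at 114, 233, 201 and 131 CPM with scrambled RNP and at 95, 214, 126 and 66.1 CPM with *Zc3h12a* RNP. It was lower in 4 of 4 pairs while the groups overlapped broadly, since replicate 2 was high with either RNP. For *Hk2* the log2 fold change was -0.51 (SE 0.14, unadjusted p 0.00865, adjusted p 0.598), and -0.35 (SE 0.13, unadjusted p 0.0235, adjusted p 0.745) without replicate 4. In contrast to *Aldoc* and *Pfkl*, *Hk2* was not raised in scrambled RNP replicate 4, whose level was 0.562 of the highest other library. *Hk1*, the constitutive isoform, was at 494, 556, 665 and 588 CPM with scrambled RNP and at 606, 483, 520 and 595 CPM with *Zc3h12a* RNP. With 2 pairs lower and 2 higher, *Hk1* had a log2 fold change of -0.061 (SE 0.12).

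**Figure D3:**
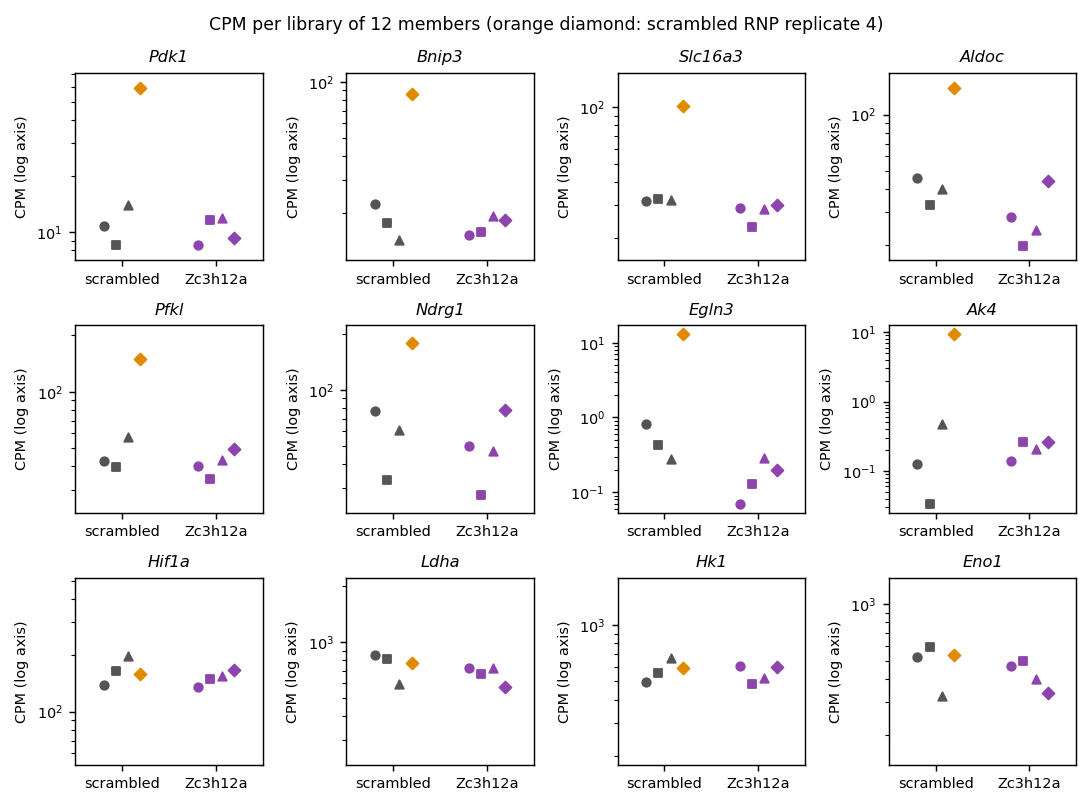
CPM of 12 members in the 8 libraries (log axes, each with its own range), with scrambled RNP at the left and *Zc3h12a* RNP at the right of each panel; each point is a library and its shape is the replicate number. The orange diamond, scrambled RNP replicate 4, is at 58.8 CPM for *Pdk1* and 86.4 CPM for *Bnip3*, above every other library, and is inside the range of the others for *Hif1a*, *Ldha*, *Hk1* and *Eno1*.

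The most abundant enzymes, *Aldoa*, *Pkm*, *Gapdh* and *Ldha*, had smaller differences than *Aldoc*, *Pfkl* and *Hk2*. Size did not follow level throughout, since *Pfkm*, the least abundant enzyme, had the smallest difference of the enzymes (-0.036). *Aldoa*, the main aldolase, was at 846, 946, 825 and 1457 CPM with scrambled RNP and at 851, 786, 928 and 732 CPM with *Zc3h12a* RNP, and its log2 fold change of -0.27 (SE 0.18) became -0.028 (SE 0.12) without replicate 4. *Pkm*, which encodes pyruvate kinase, was at 781, 938, 898 and 1433 CPM with scrambled RNP and at 820, 783, 752 and 691 CPM with *Zc3h12a* RNP. In *Aldoa* and *Pkm*, scrambled RNP replicate 4 was 1.54 and 1.53 times the next library. *Pkm* had a log2 fold change of -0.37 (SE 0.17), and of -0.15 (SE 0.11) without replicate 4.

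*Gapdh*, the glyceraldehyde-phosphate dehydrogenase, was at 866, 969, 722 and 927 CPM with scrambled RNP and at 798, 757, 809 and 686 CPM with *Zc3h12a* RNP. *Ldha*, which turns pyruvate into lactate, was at 848, 811, 597 and 774 CPM with scrambled RNP and at 728, 675, 729 and 574 CPM with *Zc3h12a* RNP. For *Gapdh* and *Ldha* the groups overlapped, pair 3 went the other way (0.16 and 0.29), and scrambled RNP replicate 4 was not the highest library. Their log2 fold changes were -0.19 (SE 0.11) for *Gapdh* and -0.16 (SE 0.12) for *Ldha*.

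The remaining enzymes were *Gpi1*, *Tpi1*, *Pgk1*, *Pgam1* and *Eno1*, which carry out isomerase, kinase, mutase and enolase steps. Their log2 fold changes lay between -0.50 for *Tpi1* (SE 0.21, unadjusted p 0.0425, adjusted p 0.773) and -0.20 for *Eno1* (SE 0.15). *Pgam1* was lower in 4 of 4 pairs (-0.35, SE 0.12, unadjusted p 0.0202, adjusted p 0.686). *Tpi1*, *Pgk1* and *Gpi1* were highest in scrambled RNP replicate 4 (458, 241 and 794 CPM) and lowest in *Zc3h12a* RNP replicate 4 (179, 100 and 477 CPM). Without replicate 4, *Pgk1* was at -0.0068 (SE 0.14) and *Tpi1* at -0.22 (SE 0.12). *Gapdh*, *Aldoa*, *Pkm*, *Ldha*, *Pgk1*, *Tpi1*, *Pgam1* and *Eno1* have near-identical processed copies in the genome, and how reads with several matches were counted is not given in the sources used here, so their levels are less certain than those of *Aldoc*, *Hk2* and *Pfkl*.

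The 3 transporters were lower with *Zc3h12a* RNP in most pairs. *Slc16a3* (chromosome 11, 120838846 to 120851694), which exports lactate, was at 31.6, 32.3, 32.1 and 101 CPM with scrambled RNP and at 29.1, 22.9, 28.5 and 30.2 CPM with *Zc3h12a* RNP. It was the 1 member of 36 tested whose groups did not overlap in either direction. Every scrambled RNP library was above every *Zc3h12a* RNP library, a pattern of this direction found in 0.663% of tested genes. The gap between the groups was from 30.2 to 31.6 CPM. The fit gave *Slc16a3* a log2 fold change of -0.63 (SE 0.26, unadjusted p 0.041, adjusted p 0.772), and -0.26 (SE 0.11, unadjusted p 0.0498, adjusted p 0.745) without replicate 4.

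*Slc2a1*, the glucose transporter GLUT1, was at 116, 89.4, 96.3 and 218 CPM with scrambled RNP and at 93.7, 82.4, 89.7 and 106 CPM with *Zc3h12a* RNP. Lower in 4 of 4 pairs, it had a log2 fold change of -0.39 (SE 0.16, unadjusted p 0.0399, adjusted p 0.772), which was -0.18 (SE 0.10, unadjusted p 0.116) without replicate 4. *Slc2a3*, the glucose transporter GLUT3, was at 139, 183, 139 and 196 CPM with scrambled RNP and at 116, 157, 142 and 168 CPM with *Zc3h12a* RNP. For *Slc2a3* the log2 fold change was -0.17 (SE 0.084), and -0.15 (SE 0.11) without replicate 4.

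*Pdk1*, a kinase that restrains the entry of pyruvate into mitochondria (chromosome 2, 71703488 to 71734202), was at 10.8, 8.53, 14 and 58.8 CPM with scrambled RNP and at 8.56, 11.7, 11.9 and 9.38 CPM with *Zc3h12a* RNP. Scrambled RNP replicate 4 was 4.2-fold above every other library, while the other 7 libraries of *Pdk1* lay between 8.53 and 14 CPM. The log2 fold change of -0.69 (SE 0.46, adjusted p 0.96) had the largest SE of the members, and it was -0.038 (SE 0.17) without replicate 4. *Pfkfb3* and *Pfkfb4* make and remove the activator of phosphofructokinase. *Pfkfb3* was at 35.3, 52.2, 41.3 and 55.8 CPM with scrambled RNP and at 45.3, 51.7, 44.2 and 40.3 CPM with *Zc3h12a* RNP. *Pfkfb4* was at 16.1, 11.3, 8.7 and 13.2 CPM with scrambled RNP and at 10.7, 10.6, 10.5 and 16.6 CPM with *Zc3h12a* RNP. Both were within their spread, with log2 fold changes of -0.0065 (SE 0.13) and -0.024 (SE 0.16) whose sign turned under other scalings.

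Of the mitochondrial members, *Bnip3* (chromosome 7, 138490690 to 138511253), a receptor for the removal of mitochondria, was at 22.3, 17.6, 14.3 and 86.4 CPM with scrambled RNP and at 15.2, 15.7, 19.3 and 18.2 CPM with *Zc3h12a* RNP. As for *Pdk1*, scrambled RNP replicate 4 alone stood apart, and the log2 fold change of -0.64 (SE 0.39, adjusted p 0.96) was -0.10 (SE 0.18) without replicate 4. Its paralogue *Bnip3l* was at 55.9, 62.8, 38.2 and 70.2 CPM with scrambled RNP and at 45.7, 57.7, 45.6 and 46.2 CPM with *Zc3h12a* RNP (log2 fold change -0.19, SE 0.13). *Higd1a*, a regulator of the respiratory chain, was at 28.9, 38.4, 23.6 and 26.2 CPM with scrambled RNP and at 26.4, 34, 37.2 and 19.8 CPM with *Zc3h12a* RNP. Its log2 fold change of -0.014 (SE 0.16) was above 0 with total counts only, with no low-count filter, with no replicate block and without replicates 1, 2 or 4. *Ak4*, a mitochondrial adenylate kinase, had 4, 1, 12 and 198 reads with scrambled RNP and 4, 6, 5 and 8 reads with *Zc3h12a* RNP. Its 9.42 CPM in scrambled RNP replicate 4 was 19.9-fold the next library. Left out by the low-count filter too, *Ak4* had a log2 fold change of -1.11 (SE 0.81, adjusted p 1) without that filter.

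*P4ha1*, the catalytic subunit of a collagen prolyl hydroxylase (chromosome 10, 59159092 to 59209126), was at 267, 229, 225 and 476 CPM with scrambled RNP and at 164, 189, 194 and 247 CPM with *Zc3h12a* RNP. Except for *Zc3h12a* RNP replicate 4, every *Zc3h12a* RNP library was below every scrambled RNP library. *P4ha1* had a log2 fold change of -0.53 (SE 0.13, unadjusted p 0.00434, adjusted p 0.48), and of -0.40 (SE 0.12, unadjusted p 0.0118, adjusted p 0.745) without replicate 4. *P4ha2* was at 18.4, 27, 23.3 and 49.7 CPM with scrambled RNP and at 19, 26.9, 18.1 and 20.5 CPM with *Zc3h12a* RNP, with a log2 fold change of -0.40 (SE 0.21) and of -0.11 (SE 0.12) without replicate 4. *Ero1a*, an oxidase that forms disulfide bonds in the endoplasmic reticulum, was at 451, 420, 532 and 512 CPM with scrambled RNP and at 415, 410, 591 and 415 CPM with *Zc3h12a* RNP. The groups overlapped, with a log2 fold change of -0.076 (SE 0.094).

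Among the other HIF targets, *Vegfa*, the vascular endothelial growth factor (chromosome 17, 46327919 to 46343309), was at 49.6, 66, 150 and 195 CPM with scrambled RNP and at 37.2, 59.7, 93.3 and 82.5 CPM with *Zc3h12a* RNP. Replicates 3 and 4 were the higher pair of libraries with either RNP, and the *Zc3h12a* RNP library was the lower in each pair. For *Vegfa* the log2 fold change was -0.63 (SE 0.17, unadjusted p 0.00608, adjusted p 0.524), and -0.42 (SE 0.12, unadjusted p 0.00888, adjusted p 0.745) without replicate 4. *Ndrg1*, a gene used as a marker of hypoxia (chromosome 15, 66801166 to 66841835), was at 76.9, 33.2, 61.2 and 179 CPM with scrambled RNP and at 50.4, 27.3, 47 and 78.4 CPM with *Zc3h12a* RNP. Replicate 2 was the lowest and replicate 4 the highest with either RNP, and the pairs differed by -0.61, -0.28, -0.38 and -1.19. For *Ndrg1* it was -0.62 (SE 0.15, unadjusted p 0.00358, adjusted p 0.449), and -0.43 (SE 0.11, unadjusted p 0.0037, adjusted p 0.745) without replicate 4.

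*Mxi1*, a repressor that opposes Myc, was at 25.2, 24, 18.8 and 42.5 CPM with scrambled RNP and at 20.9, 25.2, 14.7 and 20.1 CPM with *Zc3h12a* RNP. Its log2 fold change was -0.41 (SE 0.17, unadjusted p 0.0468, adjusted p 0.796), and -0.18 (SE 0.12) without replicate 4. *Ddit4*, an inhibitor of mTORC1 signalling, was at 38.5 to 80.8 CPM, with a log2 fold change of -0.33 (SE 0.13, unadjusted p 0.0358, adjusted p 0.756). *Kdm3a*, a histone demethylase, was at 98.2 to 177 CPM (-0.072, SE 0.092). *Ankrd37* reached 8.42 CPM in scrambled RNP replicate 4 and was at 1.78 to 3.23 CPM elsewhere, and its log2 fold change of -0.22 (SE 0.43) was 0.24 (SE 0.41) without replicate 4. *Adm*, which encodes adrenomedullin, had 1 to 12 reads in any library and did not pass the low-count filter (log2 fold change 1.22, SE 0.88, adjusted p 1 with no filter). It had 2 reads in scrambled RNP replicate 4, and so did not share the high level of *Egln3* and *Ak4* there.

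**Figure D4:**
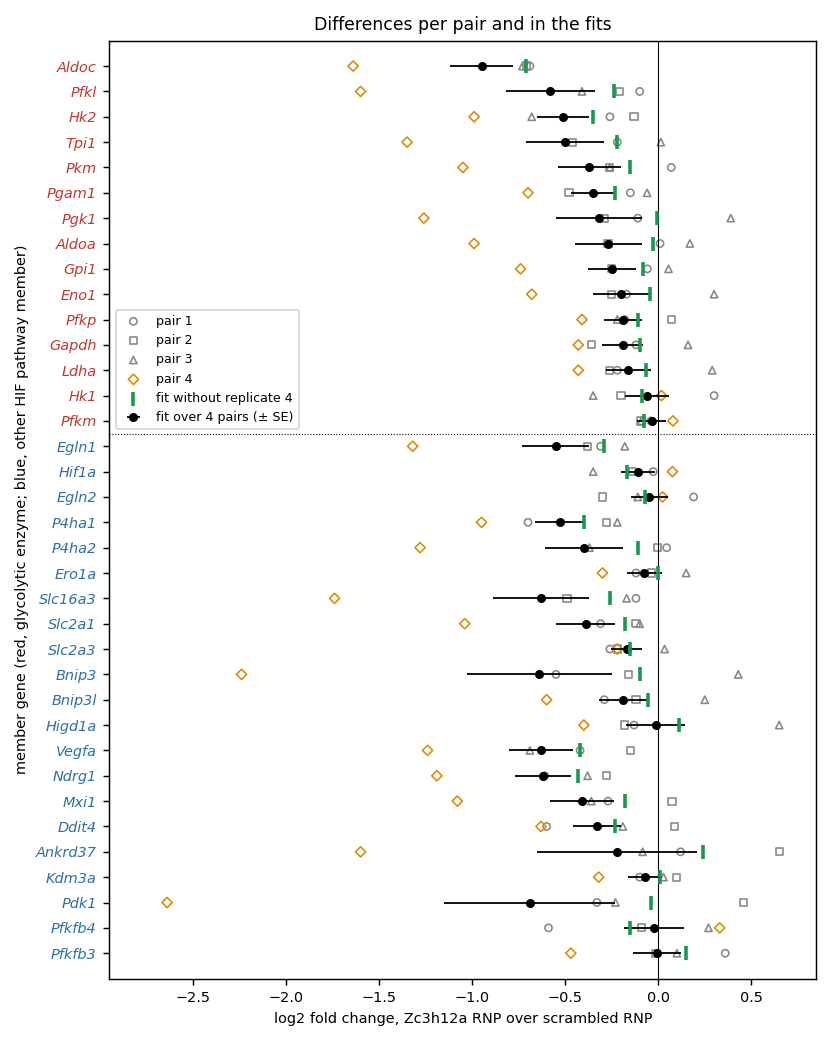
Log2 fold change of each tested member (*Zc3h12a* RNP over scrambled RNP): open symbols are the differences of pairs 1 to 4, black points with bars the fit over 4 pairs ± SE, and green marks the fit without replicate 4. Black points run from -0.95 for *Aldoc* to -0.0065 for *Pfkfb3*, and the orange diamonds of pair 4 lie farthest to the left for most members.

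The glycolytic enzymes and the other HIF pathway genes were then described apart. For the 15 enzymes the median log2 fold change was -0.27, with 5 lower at an unadjusted p at or under 0.05 and 4 lower in all 4 pairs. For the 21 other genes the median was -0.33, with 8 lower at that p and 6 lower in all 4 pairs. In pairs 1 to 4 the medians were -0.12, -0.26, -0.06 and -0.74 for the enzymes. They were -0.27, -0.12, -0.11 and -0.95 for the other genes, so that pair 4 was the most negative in both sets. Without replicate 4 the enzymes had a median of -0.10, with 15 of 15 below 0 and 2 at an unadjusted p at or under 0.05 (*Aldoc* and *Hk2*). The other genes then had a median of -0.15, with 17 of 21 below 0 and 5 at that p (*Egln1*, *Slc16a3*, *P4ha1*, *Ndrg1* and *Vegfa*). The difference between the sets was not tested.

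Calls on members depended on the test. The Wald test of DESeq2, blocked in the same way, called *Aldoc*, *Hk2*, *Ndrg1*, *P4ha1* and *Vegfa* lower (adjusted p 3.62e-06, 0.0101, 0.003, 0.0027 and 0.00319), where it called 0.348% of tested genes lower. Without replicate 2, edgeR called 7 members lower (*Aldoc*, *Bnip3*, *Ndrg1*, *Pdk1*, *Pfkl*, *Slc16a3* and *Vegfa*), where 0.378% of tested genes were called lower. In that fit the SE was 0.18 for both *Pdk1* and *Bnip3*, against 0.46 and 0.39 in the main fit. It was 0.17 for both *Pfkm* and *Pfkl*, against 0.08 and 0.24. SEs so alike do not follow how each gene varied between its pairs. The p-values behind these 7 calls are therefore not a measure of that variation. That fit kept scrambled RNP replicate 4, where *Pdk1*, *Bnip3*, *Pfkl* and *Slc16a3* stood apart. Without replicate 4 these genes were at -0.038, -0.10, -0.24 and -0.26. With no filter on low counts edgeR called *Aldoc* lower, where 0.132% of genes were. SEs were alike there too, at 0.15 for *Aldoc*, *Pfkm* and *Pfkl*, so the same limit holds for that call. *Aldoc* was the member named by each of these 3 settings. The number of members lower at an unadjusted p at or under 0.05 was 5 with no replicate block, 6 with total counts only, 7 with upper-quartile scaling and 23 without replicate 3.

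To compare levels between genes, CPM was divided by the length in kilobases of the canonical transcript and the median of the 8 libraries was taken. On this scale *Gapdh* (566 CPM per kb), *Aldoa* (562) and *Ldha* (459) were the most abundant members, followed by *Pkm* (327), *Eno1* (211), *Gpi1* (205), *Tpi1* (139) and *Hk1* (134). Neighbours in this order such as *Gapdh* and *Aldoa* had ranges over libraries that overlapped in CPM per kb. Of the members outside the enzymes, *Ero1a* (98.4 CPM per kb) and *P4ha1* (75.3) were the highest. *Slc2a3* (37.8) was above *Slc2a1* (21.4), and *Hk1* above *Hk2* (16.5), the inducible hexokinase. The members at least 2-fold above every other library in scrambled RNP replicate 4 lay between 0.0467 and 17.4 CPM per kb. These were *Ndrg1* 17.4, *Aldoc* 13.1, *Pfkl* 10.5, *Slc16a3* 6.57, *Bnip3* 4.91, *Ankrd37* 3.11, *Pdk1* 2.14, *Egln3* 0.105 and *Ak4* 0.0467. Many members were in this range without such a lead. They were *Hk2* (16.5), *Bnip3l* (15.7), *Higd1a* (12.3), *Egln1* (9.93), *P4ha2* (9.61), *Pfkfb3* (7.93), *Pfkm* (5.36), *Mxi1* (4.49), *Pfkfb4* (3.16) and *Adm* (0.184).

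Genes of these and neighbouring pathways outside the members had medians between -0.039 and 0.086. Of 13 tested HIF pathway components (subunits, coactivators, the asparagine hydroxylase and ubiquitin ligases), 9 were below 0, with a median of -0.034. The largest difference there was that of *Cited2*, a HIF-induced competitor for its coactivators (766 ± 218 to 571 ± 145 CPM, SD, n = 4, log2 fold change -0.41), followed by *Siah1a* (-0.19) and *Siah2* (-0.13). Of 32 further HIF targets, 17 were below 0, with a median of -0.039 that was -0.27 in pair 4 alone. *Fam162a*, a mitochondrial protein induced by HIF, was lower in 4 of 4 pairs (-0.56, SE 0.20, unadjusted p 0.0231, adjusted p 0.693) and at 37.9 CPM in scrambled RNP replicate 4 against 13.2 to 20.7 CPM elsewhere. *Bhlhe41* (0.81, SE 0.68) and *Anxa1* (0.61, SE 0.27) had positive values at mean levels below 5 CPM. *Anxa1* was higher in 4 of 4 pairs (unadjusted p 0.0546, adjusted p 0.821), and *Bhlhe41* in 3 of 4. Of the 32 further HIF targets, 3 were lower and 2 higher in all 4 pairs. None of these genes was called.

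Of 26 further genes of glycolysis and pyruvate use, 12 were below 0, with a median of 0.013. The largest differences there, those of *Pdk4* (1.19, SE 1.14) and *Eno2* (-0.95, SE 0.61), were of genes at mean levels below 2 CPM in both groups. Of 8 genes of the pentose phosphate pathway, which branches from glycolysis to make NADPH, 7 were above 0, with a median of 0.086. In pair 2, however, 7 of the 8 were lower, and without replicate 4 the median was -0.014, with 5 of 8 below 0. Among them *G6pdx*, the first enzyme, was at 84 ± 14.4 and 108 ± 18.1 CPM (SD, n = 4). A higher level in each of the 4 pairs gave *G6pdx* a log2 fold change of 0.36 (SE 0.10, unadjusted p 0.00859, adjusted p 0.596); *Taldo1* (0.19) and *Pgd* (0.13) followed. Of 21 genes of the TCA cycle 12 were above 0 (median 0.037, and -0.011 without replicate 4), led in size by *Idh1* (-0.25), *Idh3a* (0.24) and *Sdhb* (0.22). Scrambled RNP replicate 4 was the lowest library for 16 of the 21 TCA cycle genes, 5 of the 8 pentose phosphate genes, 11 of the 26 further genes of glycolysis and pyruvate use and 3125 of all 14934 tested genes. It was the highest for 15 of the 32 further HIF targets, 6 of the 26 further genes of glycolysis and pyruvate use and 22 of the 36 tested members.

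**Figure D5:**
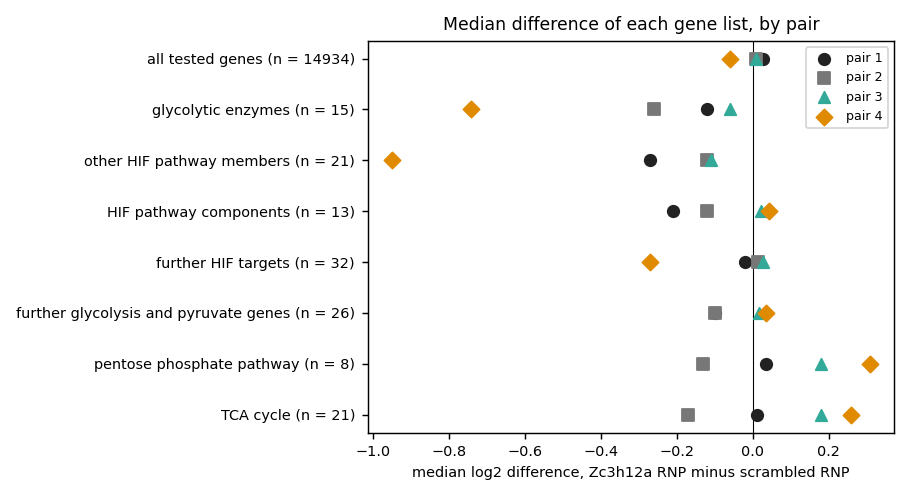
Median log2 difference (*Zc3h12a* RNP minus scrambled RNP) over the tested genes of each list, for each of the 4 pairs (one symbol per pair). The orange diamonds of pair 4 are at -0.74 for the glycolytic enzymes and -0.95 for the other HIF pathway genes, and at 0.31 and 0.26 for the pentose phosphate and TCA cycle genes.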

How the data were processed

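Poly(A) RNA of 8 BMMC cultures was sequenced, 4 per RNP. The authors aligned reads to GRCm39 with HISAT2 2.2.1 and deposited raw counts per gene symbol from featureCounts 2.0.1 (read quality by FastQC 0.11.9), with no normalization. The strand setting and the treatment of reads with several matches are not given in the sources used here. The methods name a removal of batch effects, which whole-number counts do not carry.

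The deposited counts were tested in edgeR 4.0.16 (R 4.3.3; quasi-likelihood test, TMM, filterByExpr within groups, replicate number as a block; 14934 genes), with Benjamini-Hochberg adjustment over all genes tested. A call needed an adjusted p at or under 0.05 and a log2 fold change beyond 0.5. Each SE is the absolute log2 fold change over √F. Pair differences are of log2 CPM with a prior count of 2. The test was also run on simulated counts, whose spread was set alike for all genes. No library in them stood apart from its pair, so that run does not bear on scrambled RNP replicate 4. The pairing rests on the 4 mice of the design text. Over all tested genes the deviations of same-numbered libraries correlated at 0.595, 0.075, 0.624 and 0.041. There, scrambled RNP replicate 2 correlated at 0.398 with *Zc3h12a* RNP replicate 1, and scrambled RNP replicate 4 at 0.35 with *Zc3h12a* RNP replicate 3. Over 9668 genes with a mean log2 CPM above 2, same-numbered libraries correlated at 0.717 to 0.756 and libraries of different number at no more than 0.137. Libraries within a group all differed by more than counting noise (chi-square of at least 53.6 per degree of freedom). An exact sign-flip test over 4 pairs cannot go below p = 0.125, so none was used.

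The members, role groups, comparison lists and markers were chosen with earlier results of these data known. By the rule for named genes, values per library were given for *Hif1a*, *Egln1*, *Egln3*, the 3 tested genes of each role group with the largest differences and 12 set genes, and up to 3 genes were named per comparison list; *Ak4*, *Serpina3f* and the genes ranked by their lead in scrambled RNP replicate 4 were chosen after their values were seen. The values of 1 gene that the rule would name are not reported here. Positions are from GENCODE on GRCm39 and promoter windows from RefSeq. Alternatives were DESeq2 1.42.0, limma-trend (limma 3.58.1), robust fitting, no block, other scalings and filters, and leaving out each replicate. Plots used matplotlib 3.10.9 (Python 3.11.15).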

Additional observations from a re-analysis of the deposited data

Results flagged for a closer look

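Of 78 sets of 4 libraries of a member and an RNP, 14 held a library whose gap to its nearest neighbour, divided by the range of the 4, was above the 95% critical value of Dixon's test. Chance flags about 1 in 20 such sets, here 3.9, and genes of a library are not independent. In 8 of the 14 the library was scrambled RNP replicate 4, always at the high end: *Slc16a3* (0.990), *Egln3* (0.957), *Ak4* (0.953), *Pdk1* (0.892), *Bnip3* (0.888), *Aldoc* (0.878), *Pfkl* (0.838) and *P4ha1* (0.833).

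The other 6 were spread over the *Zc3h12a* RNP libraries. Replicate 2 was high for *Pfkp* (0.871), *Bnip3l* (0.951) and *Kdm3a* (0.917). Replicate 4 was low for *Gpi1* (0.908) and high for *Pfkfb4* (0.963). Replicate 3 was high for *Ero1a* (0.975).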

How the results depend on the processing

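The negative medians kept their direction under every alternative run: -0.20 to -0.30 (glycolytic enzymes) and -0.27 to -0.45 (other HIF pathway genes) when all libraries were used, and -0.47 to -0.10 and -0.45 to -0.15 when each replicate was left out in turn. With no replicate block they were -0.30 and -0.45, and 0 genes were called. Over all genes, 0 calls became 60 with DESeq2, 1 with limma-trend, 1 with RLE size factors, 40 with no low-count filter, 3 with at least 10 counts in every library, 1 with a mean of at least 50 counts, and 0 to 137 (137 without replicate 2, 2 without replicate 4) when a replicate was left out. At an unadjusted p at or under 0.05 the main test had 922 genes. Members called were 5 with DESeq2, 1 with no low-count filter and 0 to 7 (7 without replicate 2) when a replicate was left out. Log2 fold changes near 0 turned positive for *Egln2* (0.019), *Hk1* (0.0067), *Pfkm* (0.032), *Pfkfb3* (0.062), *Pfkfb4* (0.044) and *Higd1a* (0.055) with total counts only, which also moved the median of all genes from 0.038 to 0.11; for *Pfkfb3* (0.026), *Pfkfb4* (0.011) and *Higd1a* (0.017) with no low-count filter; for *Pfkfb3* (0.0056) with upper-quartile scaling; and for *Higd1a* (0.0023) with no replicate block. With a replicate left out, values ran from -0.086 to 0.10 for *Egln2*, -0.14 to 0.048 for *Hk1*, -0.074 to 0.045 for *Pfkm*, -0.10 to 0.15 for *Pfkfb3*, -0.17 to 0.22 for *Pfkfb4*, -0.29 to 0.11 for *Higd1a*, -0.48 to 0.24 for *Ankrd37* and -0.16 to 0.01 for *Kdm3a*. The cause of these turns was not tested. Low counts kept *Egln3*, *Ak4* and *Adm* out of the main test; *Egln3* was also tested without replicate 3 (-4.00, SE 0.94, adjusted p 0.94).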
